A study of Sus scrofa with 3 samples.

Results

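The miR-10 family was read from small RNA libraries of pig liver as 3 of 405 mature microRNAs (miRNAs). They were chosen by name, though with earlier results of these data known. They are ssc-miR-10a-5p and ssc-miR-10a-3p, the 2 arms of the miR-10a precursor, and ssc-miR-10b, written below without the species prefix. Male pigs gave the liver on day 90 after birth (postnatal day 90). A single library was made per breed: Enshi black pig (domestic, China), Large White pig (commercial, of European origin) and Chinese wild boar. The groups carried no treatment or genetic change that the labels name. The labels speak of 3 male pigs in all and do not say whether RNA of several animals was pooled, so each difference below is between one library and another, with no replicate check and no p-value. All intervals are exact at the 95% level and reflect counting error alone. Read totals were 7730934 for Enshi black, 7343033 for Large White and 7824836 for wild boar, and the liver miRNA miR-122 led each of them with 34.2% to 41.4% of the reads.

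The genes of miR-10a and miR-10b lie inside clusters of HOX genes, the transcription factors that set position along the body axis. In the pig RefSeq gene table (assembly Sscrofa11.1) the nearest protein-coding HOX genes lying wholly on either side of MIR10A are HOXB3 and HOXB5. Those of MIR10B are HOXD8 and HOXD3. A HOX gene that overlaps the miRNA gene or is missing from that table would not be seen in this way. The 2 mature miRNAs share their seed, the stretch near the 5′ end that pairs with target mRNAs, and so are expected to share most targets, HOX genes among them. Both are known from endothelium, where miR-10a restrains inflammatory signalling and miR-10b acts in vessel growth. The 3p arm of miR-10a is the partner strand of the hairpin, most of which is usually discarded.

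miR-10a-5p carried nearly all of the family's reads in each library. It held 19412 reads in Enshi black, 6858 in Large White and 11330 in wild boar liver, which is 94.4%, 95.04% and 92.3% of the reads of the 3 members. As a share of the library it made up 0.251% (interval 0.248 to 0.255), 0.0934% (0.0912 to 0.0956) and 0.145% (0.142 to 0.147). These libraries hold all cell types of the liver, so fewer cells of a type and less RNA per cell cannot be told apart. The shares order the libraries as Enshi black, wild boar and Large White, with intervals that do not meet. By read number miR-10a-5p ranked 45 of the 311 miRNAs with a read in Enshi black liver, 59 of 304 in Large White liver and 57 of 307 in wild boar liver. Its neighbours in rank were miR-320 above and miR-126-5p below in Enshi black, miR-100 and miR-181b in Large White, and miR-30c-5p and miR-20a in wild boar liver.

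miR-10b was far scarcer. It had 932 reads in Enshi black, 268 in Large White and 786 in wild boar liver, at ranks 131, 161 and 129. It stood between miR-28-5p and miR-455-3p in Enshi black, between let-7d-3p and miR-135 in Large White, and between miR-130b and miR-324 in wild boar liver. The Large White library was thus the low one, while the other two lay close together. miR-10a-3p had 216, 90 and 155 reads in the same order of libraries, at ranks 180, 191 and 190. Its neighbours were miR-664-5p and miR-4332 in Enshi black, miR-149 and miR-296-5p in Large White, and miR-148b-5p and miR-149 in wild boar liver, and it was level with the lower neighbour at 216 reads in the first and 90 in the second.

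To compare libraries, counts were expressed as CPM, counts per 1000000 of a total adjusted by TMM (trimmed mean of M-values), a scaling built on the premise that most miRNAs do not differ. miR-10a-5p stood at 2089.6 CPM in Enshi black (interval 2060.4 to 2119), 1209 in Large White (1181 to 1238) and 1344 in wild boar liver (1319 to 1369). miR-10b stood at 100.3 CPM (94.0 to 107), 47.3 CPM (41.8 to 53.3) and 93.2 CPM (86.8 to 99.98). miR-10a-3p stood at 23.3 CPM (20.3 to 26.6), 15.9 CPM (12.8 to 19.5) and 18.4 CPM (15.6 to 21.5). All 3 members were lowest in the Large White and highest in Enshi black liver. The wild boar library sat near the Large White for miR-10a-5p and near the Enshi black for miR-10b. For miR-10b the Enshi black and wild boar intervals overlapped, and for miR-10a-3p the wild boar interval overlapped both others.

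**Figure D1:**
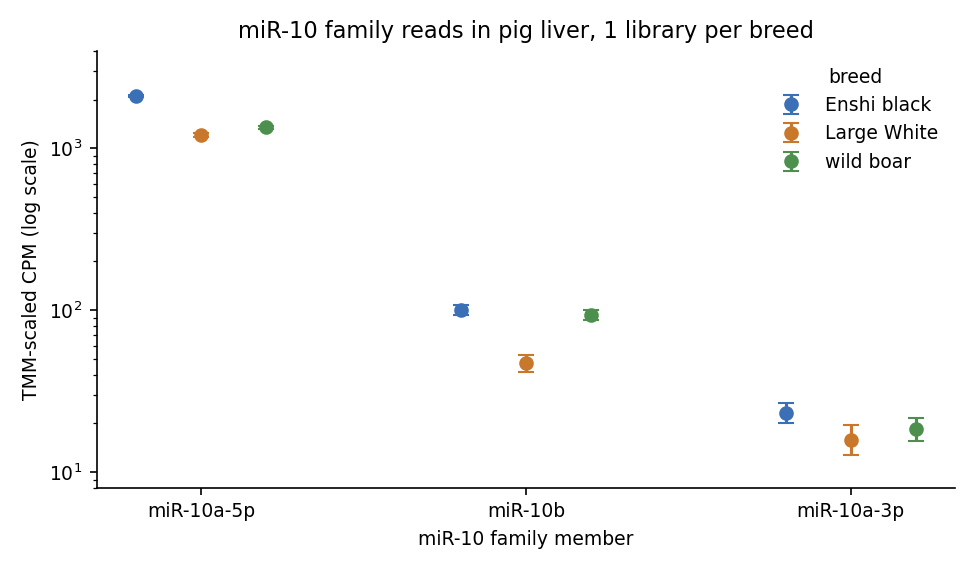
TMM-scaled CPM (log axis) of the 3 miR-10 family members in liver of Enshi black and Large White pigs and wild boar; points are single libraries and bars are 95% counting intervals. miR-10a-5p lies between 1209 and 2089.6 CPM and miR-10b between 47.3 and 100.3 CPM, each lowest in Large White liver.

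Between the Enshi black and Large White libraries, miR-10b was the one member past 2-fold, the threshold used for calling a miRNA higher or lower when its interval also left out 1. It was 2.12-fold higher in Enshi black liver (interval 1.85 to 2.44). Of the 208 miRNAs with a mean of at least 10 CPM over the libraries, 2.88% were called higher and 10.1% lower in that pair, and 203 had a lower ratio than miR-10b. All 3 members had passed that minimum, miR-10a-3p with a mean of 20.0 CPM on library totals, the scale on which the minimum was set. miR-10a-5p was 1.73-fold higher (1.68 to 1.78), with 190 of the 208 below it, and miR-10a-3p 1.47-fold higher (1.14 to 1.90). Neither reached 2-fold. The choice of scaling decides these calls: on library totals all 3 members were past 2-fold, at 2.69-fold for miR-10a-5p, 2.28-fold for miR-10a-3p and 3.30-fold for miR-10b, when 27.4% of all miRNAs were called higher too. TMM moves every log2 ratio of this pair by −0.64, so the order of the members among the 208 miRNAs is the same on both scales.

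In the wild boar against the Large White library miR-10a-5p and miR-10b parted. miR-10a-5p was 1.11-fold higher in wild boar liver (interval 1.08 to 1.15), close to the middle of all miRNAs, with 122 of 208 below it. miR-10b was 1.97-fold higher (1.72 to 2.28), with 183 below it, just under the threshold. miR-10a-3p had a ratio of 1.16 (0.888 to 1.52), which was not distinguishable from 1 at its depth. None of the 3 was called after TMM, where 11.5% of all miRNAs were called higher and 13.5% lower. On library totals miR-10b was called, at 2.75-fold, and miR-10a-5p and miR-10a-3p were at 1.55-fold and 1.62-fold, against 21.6% of all miRNAs. With DESeq2 size factors miR-10b also crossed the threshold, at 2.02-fold, with the median log2 ratio of all 208 miRNAs at 0.01.

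The Enshi black and wild boar libraries showed the converse, apart for miR-10a-5p and close for miR-10b. miR-10a-5p was 1.55-fold higher in Enshi black liver (interval 1.52 to 1.59), with 180 of the 208 miRNAs below it. miR-10b had a ratio of 1.08 (0.978 to 1.18) that was not distinguishable from 1, and 117 were below it. On library totals that ratio was 1.20 (1.09 to 1.32). miR-10a-3p was 1.26-fold higher (1.02 to 1.56). None of the 3 was called under either scaling. After TMM 6.25% of all miRNAs were called higher and as many lower, and 7.21% were called higher on library totals. The 3 pairs share libraries and so are not independent of one another. Over the 3 libraries the log2 CPM of miR-10b spanned 1.09, that of miR-10a-5p 0.79 and that of miR-10a-3p 0.55, and the median span of the 208 miRNAs was 0.67.

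**Figure D2:**
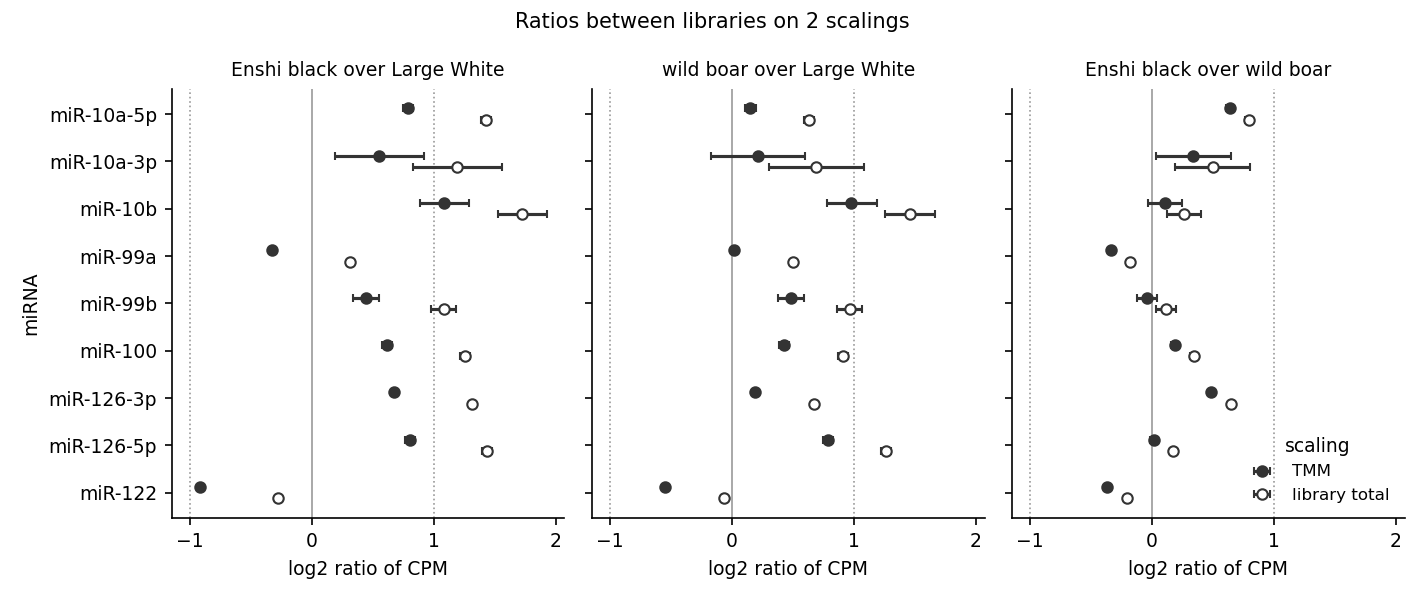
Log2 ratios of CPM between libraries for the miR-10 members, the miR-99 and miR-100 relatives, the endothelial miR-126 arms and the hepatocyte miR-122, after TMM scaling (filled) and on library totals (open), with 95% counting intervals and dotted lines at 2-fold. miR-10b lies past the 2-fold line in Enshi black over Large White at 1.09 after TMM, while miR-10a-5p and miR-10a-3p pass it there on library totals, at 1.43 and 1.19.

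The sum of the 3 members does not depend on how the counting divided reads between miR-10a-5p and miR-10b, though in Large White it too ended in a fraction of 0.5 before rounding. It came to 2213 CPM in Enshi black, 1272 in Large White and 1456 in wild boar liver. Family reads were 1.74-fold more frequent in Enshi black than in Large White liver (interval 1.69 to 1.79) and 1.52-fold more than in wild boar liver (1.49 to 1.56), and 1.14-fold more in wild boar than in Large White liver (1.11 to 1.18). As miR-10a-5p holds most of the reads, the sum followed it and not miR-10b.

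The balance of miR-10a-5p to miR-10b is a ratio inside each library and is free of the scaling. There were 20.8 miR-10a-5p reads per miR-10b read in Enshi black liver (interval 19.5 to 22.3), 25.6 in Large White liver (22.6 to 29.0) and 14.4 in wild boar liver (13.4 to 15.5). Wild boar was the low one and the Large White the high one, and no 2 intervals met. miR-10b made up 4.58%, 3.76% and 6.49% of the reads of the pair. The balance of the Large White library exceeded that of the wild boar library 1.78-fold (1.54 to 2.05) and that of the Enshi black library 1.23-fold (1.07 to 1.42), and the Enshi black exceeded the wild boar 1.44-fold (1.31 to 1.60). Different miRNAs are captured with unequal efficiency in library preparation, so a balance compares reads and not molecules. The deposited values also divide some reads: miR-10b ended in a fraction of 0.5 in all 3 libraries and miR-10a-5p in the Enshi black and wild boar libraries. How many reads were divided cannot be seen from such a sum, and the balance rests on that division.

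The 5p arm dominated the miR-10a precursor in each breed. By exact Clopper-Pearson intervals, it held 98.9% of the reads of both arms in Enshi black (98.74 to 99.04), 98.7% in Large White (98.41 to 98.96) and 98.7% in wild boar liver (98.42 to 98.85). All 3 intervals overlapped. In other terms there were 89.9, 76.2 and 73.1 reads of the 5p arm per read of the 3p arm. The ratio of the odds of a 5p read was 1.18 for Enshi black over Large White (0.910 to 1.52), 0.959 for wild boar over Large White (0.730 to 1.25) and 1.23 for Enshi black over wild boar (0.992 to 1.52), each interval including 1. The precision is set by the 90 to 216 reads of the 3p arm. Among the 62 precursors with both arms named and at least 100 reads in each library, the mean share of the leading arm was 98.8% for miR-10a and 92.4% for the median precursor, and 15 precursors exceeded miR-10a. The arm share gives no matching view of miR-10b, for which 1 arm was analysed here.

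**Figure D3:**
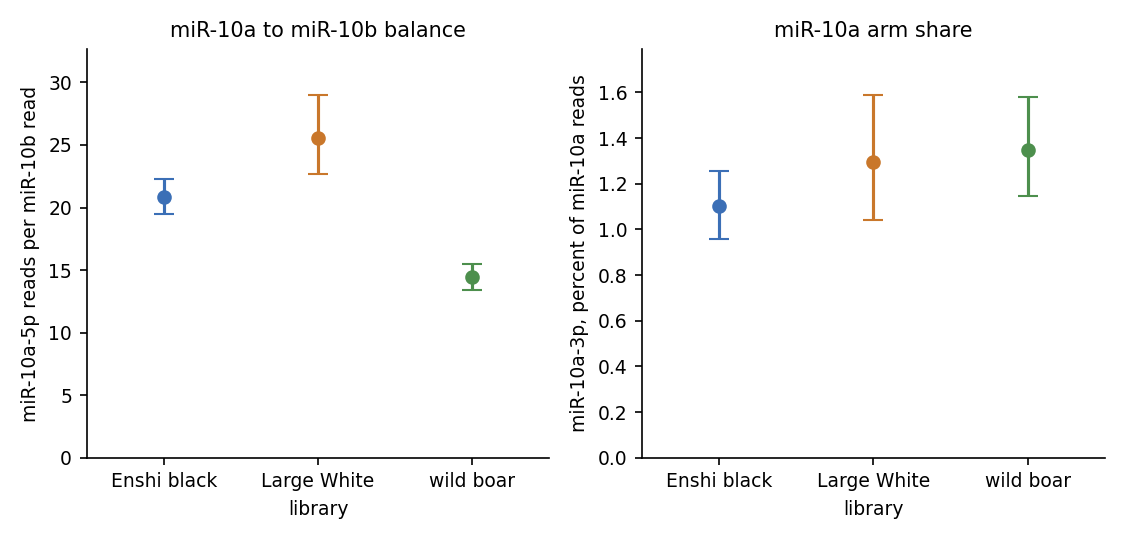
Left, miR-10a-5p reads per miR-10b read, and right, miR-10a-3p as a percent of miR-10a reads, in each of the 3 liver libraries with exact 95% counting intervals; both axes start at 0. The balance runs from 14.4 in the wild boar to 25.6 in Large White liver with separate intervals, while the 3p shares of 1.10%, 1.30% and 1.35% overlap.

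The other miRNAs of the HOX clusters had few or no reads in these livers. miR-196b-5p, whose family represses HOX genes of posterior segments, had 28 reads in Enshi black, 52 in Large White and 25 in wild boar liver. miR-196a had 1, 1 and 2 reads, and miR-615 had 0 in all 3, which allows up to 0.323, 0.529 and 0.356 CPM. Thus 3 of the 6 listed HOX cluster miRNAs, the miR-10 members themselves, passed the minimum. For miR-196b-5p the Large White library was the high one, at 9.17 CPM against 3.01 and 2.97, opposite to the miR-10 members.

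miR-99a, miR-99b and miR-100 descend from the same ancient family, with a seed that differs from that of miR-10, and are known to repress the growth kinase MTOR. miR-99a was far more abundant than any miR-10 member, at 12962 CPM in Enshi black, 16194 in Large White and 16397 in wild boar liver. miR-100 stood at 1906, 1243 and 1675 CPM and miR-99b at 261, 192 and 268 CPM. Like the miR-10 members, both were lowest in Large White liver. miR-99a was lowest in Enshi black liver after TMM but in Large White liver on library totals, where its ratio of Enshi black over Large White was 1.25 and not 0.800. None of the 3 relatives was called after TMM in any pair. Their median log2 ratio was 0.44 in Enshi black over Large White, 0.43 in wild boar over Large White and −0.04 in Enshi black over wild boar, where all 208 miRNAs had −0.04, −0.02 and −0.01, and the last of the relatives' medians turned to 0.12 on library totals. On library totals miR-99b and miR-100 were past 2-fold in Enshi black over Large White, at 2.12-fold and 2.39-fold, when 27.4% of all 208 miRNAs were called higher. The median log2 ratio of all 208 on totals was 0.60 in that pair and 0.15 in Enshi black over wild boar. Per 100 reads of miR-99a, which is free of scaling, there were 16.1 reads of miR-10a-5p in Enshi black (15.9 to 16.4), 7.47 in Large White (7.28 to 7.65) and 8.20 in wild boar liver (8.04 to 8.35). Per 100 reads of miR-100 there were 110 (107 to 112), 97.2 (94.1 to 101) and 80.2 (78.3 to 82.3). So miR-10a-5p and miR-100 had about equal read numbers in Large White liver, and miR-10a-5p led in the Enshi black and trailed in wild boar liver.

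miR-10a-5p moved most closely with the endothelial miR-126-3p. Likeness was the Euclidean distance between log2 CPM profiles, each centred on its mean over the 3 libraries, which no scaling can change. Among 129 other miRNAs of at least 100 mean CPM, the nearest to miR-10a-5p were miR-126-3p at a distance of 0.11, miR-130b at 0.22, miR-125a at 0.24, the smooth muscle miR-143-3p at 0.26 and miR-199a-5p, typical of fibroblasts and stellate cells, at 0.30. The median distance was 0.77. The second endothelial arm, miR-126-5p, was not among the 5 nearest to miR-10a-5p. Its centred log2 CPM was 0.27 in Enshi black, −0.53 in Large White and 0.26 in wild boar liver. For miR-10a-5p these values were 0.48, −0.31 and −0.16. Nearest to miR-10b among 130 miRNAs were miR-139-5p at 0.12, miR-222 at 0.18, miR-95 at 0.18, miR-126-5p, the other arm of the miR-126 precursor, at 0.21 and miR-15b at 0.25, with a median of 0.97. miR-10a-5p and miR-10b were 0.59 apart, and miR-10a-5p and its own 3p arm 0.22. With 3 libraries these profiles are a description only, and miR-130b, miR-199a-5p and miR-15b hold reads shared with other names.

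**Figure D4:**
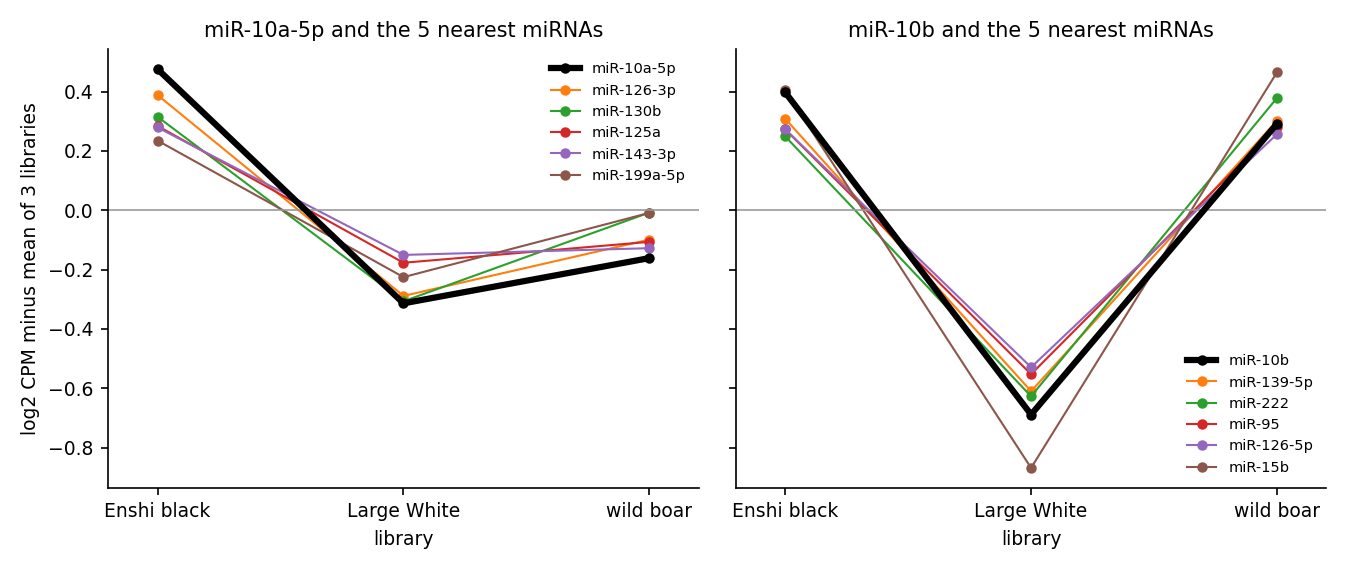
Log2 CPM minus its mean over the 3 libraries for miR-10a-5p (left, black) and miR-10b (right, black) with the 5 nearest miRNAs of each among those of at least 100 mean CPM; each point is 1 library. miR-10a-5p is high in Enshi black liver at 0.48 and low in the other two, while miR-10b is low in Large White liver at −0.69 and high in the other two.

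Markers of liver cell types moved between these libraries as well. The 2 endothelial markers, miR-126-3p and miR-126-5p, summed to 16284 CPM in Enshi black, 10079.9 in Large White and 12169 in wild boar liver, the same order as miR-10a-5p, also on library totals at 1.96%, 0.779% and 1.31% of reads. Most of that sum is miR-126-3p. After TMM miR-126-5p did not separate Enshi black from wild boar liver, with a ratio of 1.01 (interval 0.991 to 1.03). On library totals that ratio was 1.13 (1.10 to 1.15). Per 100 miR-126-3p reads there were 14.6 miR-10a-5p reads in Enshi black (14.4 to 14.9), 13.5 in Large White (13.2 to 13.9) and 13.2 in wild boar liver (12.9 to 13.5). The Large White and wild boar intervals overlapped there. Against the other arm the order differed: per 100 miR-126-5p reads there were 104 miR-10a-5p reads in Enshi black (102 to 106), 105 in Large White (102 to 109) and 67.8 in wild boar liver (66.2 to 69.4), so Enshi black and Large White overlapped and wild boar was low. miR-10b gave 0.703 (0.658 to 0.749), 0.529 (0.468 to 0.597) and 0.915 (0.852 to 0.982) reads per 100 miR-126-3p reads, with no 2 intervals meeting and wild boar highest. Per 100 miR-126-5p reads miR-10b gave 5.004 (4.68 to 5.34), 4.11 (3.62 to 4.65) and 4.70 (4.37 to 5.05), where wild boar overlapped both others. The order of the libraries for either miRNA thus depends on which endothelial arm it is set against.

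The 6 stellate and smooth muscle markers (miR-143-3p, miR-145-5p, miR-199a-5p, miR-199a-3p, miR-199b-5p and miR-214) summed to 50364 CPM in Enshi black, 39160.3 in Large White and 41458 in wild boar liver. Their single levels ran from 475 CPM for miR-214 in the Large White to 22547 CPM for miR-143-3p in Enshi black liver, and none of the 6 was called in any pair after TMM. On library totals they made up 6.05%, 3.02% and 4.47% of reads, the order of miR-10a-5p. There 3 of the 6 were past 2-fold in Enshi black over Large White (miR-143-3p, miR-199a-5p and miR-199b-5p, at 2.095-fold, 2.14-fold and 2.16-fold) and miR-199b-5p in wild boar over Large White, at 2.07-fold. Of all 208 miRNAs, 27.4% were called higher on totals in the former pair and 21.6% in the latter. Per 100 miR-143-3p reads there were 9.27 reads of miR-10a-5p in Enshi black (9.13 to 9.41), 7.22 in Large White (7.05 to 7.40) and 7.90 in wild boar liver (7.75 to 8.06). Per 100 miR-199a-5p reads there were 12.6 (12.4 to 12.7), 9.999 (9.75 to 10.25) and 9.56 (9.38 to 9.75). Enshi black was highest against both, while Large White and wild boar changed places.

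The 4 hepatocyte markers (miR-122, miR-192, miR-194a and miR-885-5p) went the other way, with 341596, 657125 and 439702 CPM. On library totals they made up 41.0%, 50.8% and 47.4% of the reads, so the order of the sum held there too. Of the 4, miR-194a did not separate Large White from wild boar liver on totals. Its wild boar over Large White ratio there was 1.004 (interval 0.999 to 1.009). Per 100 miR-122 reads there were 0.734 miR-10a-5p reads in Enshi black (0.724 to 0.744), 0.226 in Large White (0.220 to 0.231) and 0.367 in wild boar liver (0.360 to 0.373). Against that marker the miR-10a-5p difference between breeds was wider than on any scaling of the libraries, and the order of the libraries was the same.

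Leucocyte markers summed to 10708, 20629 and 3582 CPM over the 4 of 5 that were analysed here (miR-142-3p, miR-142-5p, miR-150 and miR-155-5p), and the red cell miR-144, miR-451 and miR-486 to 4114, 5324 and 3114 CPM. Both sums were highest in Large White liver, where the miR-10 members were lowest. The red cell miR-486 did not separate wild boar from Large White liver, with a ratio of 0.990 (interval 0.906 to 1.08). Among the leucocyte markers miR-150 was instead highest in Enshi black liver, at 314 CPM against 278 in Large White and 91.0 in wild boar liver. On library totals the leucocyte sum stayed highest in Large White liver, at 1.29%, 1.59% and 0.386% of reads, as did miR-142-3p, its largest part. miR-142-5p and miR-150 were then highest in Enshi black liver, with Enshi black over Large White ratios of 1.06 and 1.76. For miR-155-5p that ratio was 1.01 (interval 0.971 to 1.05). The red cell sum was then highest in Enshi black liver, at 0.494%, 0.411% and 0.336%, though its miR-144 stayed highest in Large White liver. On totals miR-486 did not separate Enshi black from wild boar liver, with a ratio of 1.01 (0.934 to 1.10). No marker analysed was at 0 in any library. The part of cell makeup in the miR-10 values was not tested.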

How the data were processed

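The deposited files give expected counts (read counts per mature miRNA and precursor, with fractions), per the file headers, and RPM, which was not used. Per the submitters' processing notes, reads were placed on Sscrofa 10.2. Aligner and counting tool: not given in the sources used here. Of 411 names, 6 that repeated the reads of another were left out. Counts were summed over precursors and rounded to whole numbers, although whole counts had been assumed in planning. Totals were 7730934 (Enshi black), 7343033 (Large White) and 7824836 (wild boar).

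edgeR 4.0.16 (R 4.3.3) gave TMM factors, taken over all miRNAs, of 1.20, 0.772 and 1.08. Ratios have exact conditional-binomial intervals, shares Clopper-Pearson intervals, and a count of 0 a floor of 3 counts. Reads carry no molecular identifiers, so these cover counting error only. Code was tested on simulated data. Alternatives included DESeq2 1.42.0 size factors. Named miRNAs were the members, the listed relatives, HOX cluster miRNAs and markers, rank neighbours and the 5 nearest profiles. Members and lists were chosen with earlier results of these data known. No coordinate is printed, as the gene table used is of another assembly, Sscrofa11.1.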

Additional observations from a re-analysis of the deposited data

How the results depend on the processing

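Scaling moved the ratios between libraries and reversed none of the members' ratios. On library totals the log2 ratios of Enshi black over Large White were 1.43 for miR-10a-5p, 1.19 for miR-10a-3p, 1.72 for miR-10b and 1.44 for the family sum, and without miR-122 in the total they were 1.26, 1.02, 1.56 and 1.27, with 3 members past 2-fold on both. The median of all 208 miRNAs was 0.60 on totals, where 27.4% were called higher, and 0.43 without miR-122. For wild boar over Large White the members and the sum had 0.63, 0.69, 1.46 and 0.67 on totals and 0.59, 0.65, 1.41 and 0.63 without miR-122, with 1 member past 2-fold on both and with DESeq2 size factors. The median of all 208 miRNAs was 0.46 on totals, where 21.6% were called higher. It was 0.42 without miR-122 and 0.01 with DESeq2 size factors. For Enshi black over wild boar, totals gave 0.79 for miR-10a-5p, 0.26 for miR-10b and 0.76 for the sum, and totals without miR-122 gave 0.67 and 0.64 for miR-10a-5p and the sum. TMM over miRNAs of at least 10 mean CPM, chosen after seeing the data, gave miR-10a-5p 0.70 and the sum 0.71 in Enshi black over Large White, and 0.59 and 0.56 in Enshi black over wild boar. There miR-10b stayed just past 2-fold over Large White. A minimum of 100 CPM gave 0.73 and 0.74 for miR-10a-5p and the sum in the first pair and 0.10 and 0.14 in wild boar over Large White. In Enshi black over Large White it left 0 members past 2-fold, since miR-10b is below that minimum, and a 4-fold threshold left 0 past it. The relatives' median became 1.08, 0.91 and 0.12 on totals in the 3 pairs, with 2 past 2-fold in the first. All 208 miRNAs had 0.60, 0.46 and 0.15 on totals, with 27.4% called higher in the first. Without miR-122 the relatives' median became 0.91 with 1 past 2-fold in the first pair and 0.86 in the second, where all 208 had 0.43 and 0.42. At the 100 CPM minimum the relatives' median was 0.37 in the second pair.

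Arm shares and balances stayed within their counting intervals under every alternative run for them (unrounded values, thinned libraries, fractions dropped, 1 read moved between arms, both arms counted). These alternatives could move the values only a little. None of them redid the division of shared reads between miR-10a-5p and miR-10b, so the dependence of the balance on it was not tested. No paired analysis was possible because each breed has 1 library and no fit was made. The 3p arm and miR-10b in the Large White library rest on 90 and 268 reads, which limits their precision.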
